A study of Mus musculus with 11 samples.

Results

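Pax5, Ms4a1, Cd79a, Cd79b, Cr2, Blk, Bank1, Fcrla and Cd22 are genes that define B cells, and their RNA was followed here in the kidneys of lupus-prone and control mice. These 9 genes, of 25677 listed, were selected on these measurements themselves, because Pax5 and B cell markers had more reads in DNase I treated than in untreated MRL/lpr kidneys, so their difference between these 2 groups is described below without a test. The study asked which transcripts change in the kidney when extracellular DNA is digested during lupus nephritis. RNA was sequenced from whole kidneys of 3 C57BL/6J mice (Ctr) and of 8 MRL/lpr mice. Of these, 4 received DNase I by daily intraperitoneal injection from week 17 (DNase) and 4 were left untreated (Lpr). All mice were female and 21 weeks old, and each kidney gave 1 library. Both MRL/lpr groups carry the lpr mutation of Fas and the MRL background, so a difference from Ctr cannot be told apart from a difference in strain. Kidneys are named below by group and replicate number, as in Lpr 3.

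B cells recognise antigen through a surface immunoglobulin that signals through the chains CD79A and CD79B, and the transcription factor PAX5 switches on their gene programme and holds it until they become antibody-secreting plasma cells. On that transition PAX5 and many of its targets are switched off, while genes of the secretory machinery are switched on. In lupus nephritis, B cells, plasma cells and T cells enter the kidney, where they can form lymphoid aggregates, whereas a healthy kidney holds few B cells.

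The reads were counted per gene, with 33469858 to 38460873 counts per kidney, and are given as CPM, which are counts scaled to a common library size and composition. A count of 3, the floor used for counting error, corresponded to 0.0753 to 0.0958 CPM. Marker genes of the nephron were abundant in every library, with a summed level of the 8 kidney markers between 9711 and 16182 CPM. One library stood apart, since in Lpr 3 the counts of a gene relative to the other kidneys fell by 0.393 log2 units with each doubling of its length, while this slope was between -0.0428 and 0.0772 in each of the other 10. In bulk kidney RNA, fewer B cells and less RNA per B cell cannot be told apart.

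The start regions of Pax5, Cd79a and Cd22 are shown because they stand for the transcription factor, the receptor chain and a member with a pattern of its own in the values below. Each is the RefSeq window of 300 bases, from 250 before to 50 after the annotated start, on GRCm38.p6, read 5′ to 3′ on the strand of the gene. Capitals mark the E-box CAGGTG or its reverse complement, which is bound by E proteins, and the palindrome of the B cell factor EBF1, searched on both strands.
Pax5, chr4:44710645-44710944, minus strand: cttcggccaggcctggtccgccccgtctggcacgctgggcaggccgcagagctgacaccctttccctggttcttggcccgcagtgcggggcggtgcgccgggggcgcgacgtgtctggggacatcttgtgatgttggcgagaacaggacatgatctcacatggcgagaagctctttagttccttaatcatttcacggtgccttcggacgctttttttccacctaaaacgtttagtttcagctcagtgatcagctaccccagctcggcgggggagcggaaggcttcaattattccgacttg
Cd79a, chr7:24897247-24897546, plus strand: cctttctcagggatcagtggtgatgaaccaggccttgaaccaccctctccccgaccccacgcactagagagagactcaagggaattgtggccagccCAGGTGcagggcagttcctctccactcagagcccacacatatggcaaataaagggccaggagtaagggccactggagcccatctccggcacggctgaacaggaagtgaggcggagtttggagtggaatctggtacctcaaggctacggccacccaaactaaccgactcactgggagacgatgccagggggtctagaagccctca
Cd22, chr7:30878979-30879278, minus strand: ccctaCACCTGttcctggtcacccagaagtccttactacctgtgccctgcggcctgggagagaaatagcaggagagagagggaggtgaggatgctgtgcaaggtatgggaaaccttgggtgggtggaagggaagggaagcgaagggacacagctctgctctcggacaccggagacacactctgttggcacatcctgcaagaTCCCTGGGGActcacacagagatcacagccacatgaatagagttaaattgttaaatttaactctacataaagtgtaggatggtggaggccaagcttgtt
The reference set held such a window for 6 of the 9 genes, the other 3 of which were Bank1, Cr2 and Fcrla. The E-box was present in 5 of these 6 windows and in 20.2% of the 32851 windows searched, and Pax5 was the one without it. The EBF1 palindrome was present in 1, at 49 bases before the start of Cd22, and in 0.904% of all windows. The octamer ATGCAAAT and the PU.1 motif GAGGAAGT, present in 1.74% and 3.2% of all windows, were in none of the 6. These matches describe letters in a window and do not show that a factor bound there.

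Pax5 lies on chromosome 4 at 44524757 to 44710487 on the minus strand, and Cd79a and Cd22 lie on chromosome 7, at 24897381 to 24902197 on the plus strand and at 30865402 to 30880342 on the minus strand (GENCODE M21, GRCm38). Exons of Pax5 share 636 bases with 5730488B01Rik on the opposite strand, which had at most 1 count in any kidney, and 125 bases with Gm12462, also on the opposite strand, which is not listed. Exons of Cd22 share 479 bases with Gm29439, another opposite-strand gene that is not listed. Whether the counting used the strand was not given in the sources used here, so reads in these stretches could come from either gene.

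Levels of different genes are compared as FPKM, which divides by gene length. In DNase kidneys Cd79a had the highest mean, 9.60 ± 3.07 FPKM (SD, n = 4), followed by Cd79b with 6.84 ± 1.90 and Cd22 with 2.23 ± 0.836. The next 4, Fcrla, Blk, Ms4a1 and Bank1, had means between 0.433 and 0.737 FPKM, and Pax5 and Cr2 were lowest with 0.109 ± 0.0529 and 0.0985 ± 0.0307. Cd79a and Cd79b did not differ beyond their spread, and neither did Fcrla to Bank1 among themselves, nor Pax5 and Cr2. In Lpr kidneys the first 3 genes were again Cd79a, Cd79b and Cd22, with 6.22 ± 2.91, 5.04 ± 1.48 and 2.09 ± 1.40 FPKM (SD, n = 4), and Pax5 was lowest with 0.0213 ± 0.00525. In Ctr kidneys the order differed. Cd79b led with 1.94 ± 1.20 FPKM (SD, n = 3), and Cd22, which followed Cd79a and Cd79b in both MRL/lpr groups, was next to lowest with 0.0439 ± 0.0312, above Pax5 with 0.0309 ± 0.0294, from which it did not differ beyond the spread.

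**Figure D1:**
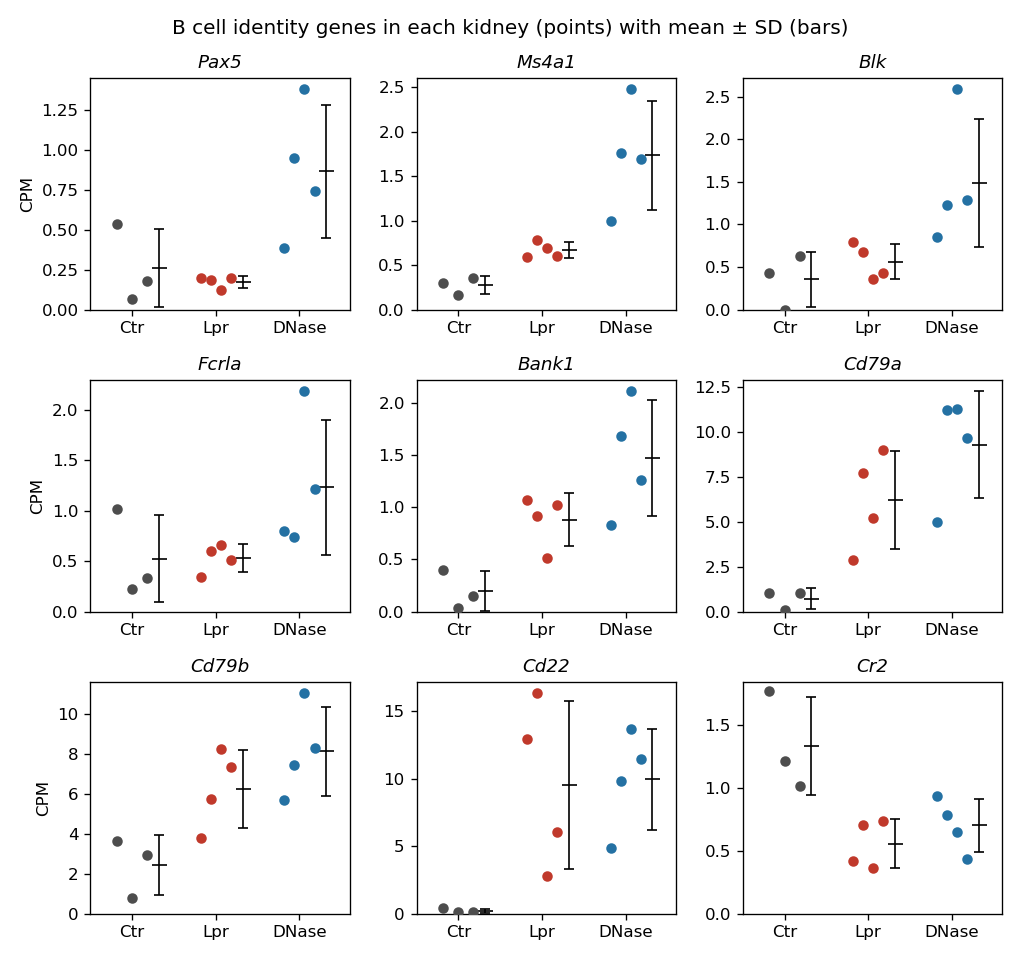
Level of each of the 9 genes in CPM (y axis, from 0, scale set per gene) in the kidneys of the 3 groups (x axis). Points are single kidneys and bars give the mean ± SD, with 3 Ctr, 4 Lpr and 4 DNase kidneys. Pax5, Ms4a1, Blk and Fcrla show no overlap between DNase and Lpr, Cd22 lies near 0 in Ctr alone, and Cr2 is highest in Ctr.

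The comparison of both MRL/lpr groups with Ctr asks whether B cell transcripts are more abundant in the lupus kidney, and it gives Lpr and DNase equal weight. The DNase values that helped to pick the genes still enter the mean, and they varied more between mice than the Lpr values for Pax5 and Ms4a1, so the comparison is not fully independent of the choice. Of the 9 genes, 3 rose, namely Cd22, Cd79a and Bank1, where a call needed a Benjamini-Hochberg adjusted p under 0.05 in edgeR's quasi-likelihood test over 16500 genes together with a log2 fold change above 2 in size. Over all genes tested, 4.95% were called higher and 1.23% lower. The adjusted p alone was passed by 6 of the 9, the other 3 being Ms4a1, Cd79b and Cr2, and by 15.9% of all genes. Every MRL/lpr kidney was above every Ctr kidney for 5 of the 9 genes and for 11.6% of all genes, and below for 1 of the 9 and for 7.41% of all genes. The median log2 fold change of the 9 genes was 1.54, beside 0.01 over all genes tested. Pax5 itself was not called. It passed the filter on low counts here only through the DNase kidneys, which helped to pick it.

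Among the receptor chains, Cd79a lay at 1.05, 0.0638 and 1.05 CPM in Ctr 1 to Ctr 3, at 2.90, 7.75, 5.24 and 8.99 CPM in Lpr 1 to Lpr 4 and at 4.99, 11.3, 11.3 and 9.70 CPM in DNase 1 to DNase 4. Every MRL/lpr kidney was above every Ctr kidney, and the log2 fold change was 3.38 (standard error 0.63, adjusted p = 0.00278). Its partner Cd79b lay at 3.62, 0.766 and 2.94 CPM in Ctr, at 3.77, 5.74, 8.24 and 7.34 in Lpr and at 5.71, 7.47, 11.1 and 8.33 in DNase. The groups did not overlap here either, but Lpr 1 was close to Ctr 1, and the log2 fold change, 1.54 (standard error 0.42, adjusted p = 0.0259), was below the fold threshold.

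Ms4a1, which encodes the B cell surface protein CD20, lay at 0.295, 0.160 and 0.360 CPM in Ctr, at 0.591, 0.783, 0.692 and 0.598 in Lpr and at 0.993, 1.77, 2.49 and 1.70 in DNase. The 3 groups formed steps without overlap. Its log2 fold change between MRL/lpr and Ctr was 1.97 (standard error 0.38, adjusted p = 0.00324), just under the fold threshold, which it passed without Ctr 1 (2.03), without Ctr 3 (2.21) or without DNase 1 (2.06).

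Cd22 encodes a sialic acid-binding receptor that dampens the B cell receptor signal. It lay at 0.376, 0.128 and 0.120 CPM in Ctr, at 12.9, 16.3, 2.77 and 6.03 in Lpr and at 4.85, 9.81, 13.6 and 11.4 in DNase. The lowest MRL/lpr kidney, Lpr 3, was still far above the highest Ctr kidney, and its log2 fold change, 5.49 (standard error 0.72, adjusted p = 0.000234), was the largest of the 9. It was 5.63 without Lpr 3 and lay between 5.22 and 6.26 with each kidney left out in turn.

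Bank1, a scaffold protein of B cell receptor signalling, lay at 0.403, 0.0319 and 0.150 CPM in Ctr, at 1.07, 0.913, 0.511 and 1.02 in Lpr and at 0.827, 1.69, 2.11 and 1.26 in DNase. Ctr 2 held a single read of it, and no MRL/lpr kidney reached down to Ctr. The log2 fold change was 2.49 (standard error 0.57, adjusted p = 0.0103), and the call was lost without Ctr 3 (adjusted p = 0.058 from edgeR). With each kidney left out in turn it lay between 2.01 and 3.58. Blk, a Src family kinase of B cells, lay at 0.429, 0 and 0.630 CPM in Ctr, at 0.788, 0.678, 0.361 and 0.427 in Lpr and at 0.855, 1.22, 2.59 and 1.29 in DNase. Ctr and Lpr overlapped, and the log2 fold change between MRL/lpr and Ctr was 1.36 (adjusted p = 0.238).

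Pax5 had 20, 2 and 6 reads in Ctr, 7, 7, 4 and 7 reads in Lpr and 14, 35, 55 and 29 reads in DNase, which gave 0.537, 0.0638 and 0.180 CPM, 0.197, 0.183, 0.120 and 0.199 CPM, and 0.386, 0.951, 1.38 and 0.746 CPM. Lpr kidneys lay within the range of Ctr, and Ctr 1 lay above DNase 1. The log2 fold change between MRL/lpr and Ctr was 0.55 (standard error 0.57, adjusted p = 0.61), and it ranged from 0.11 without Ctr 2 to 1.64 without Ctr 1. Fcrla, an intracellular Fc receptor-like protein of B cells, had the same features, with 1.02, 0.223 and 0.330 CPM in Ctr, 0.338, 0.60, 0.662 and 0.512 in Lpr and 0.800, 0.734, 2.18 and 1.21 in DNase. Ctr 1 again reached into the DNase range, and the log2 fold change was 0.60 (adjusted p = 0.516), between 0.24 and 1.53 with each kidney left out in turn.

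Cr2 encodes the complement receptor CD21 of mature B cells and follicular dendritic cells. It lay at 1.77, 1.21 and 1.02 CPM in Ctr, at 0.422, 0.704, 0.361 and 0.740 in Lpr and at 0.938, 0.788, 0.653 and 0.437 in DNase. Every MRL/lpr kidney was below every Ctr kidney, with a difference of -1.09 on the log2 scale (standard error 0.32, adjusted p = 0.0373) that did not pass the fold threshold. Cr2 was thus the 1 gene of the 9 with a negative fold change. The part of cells other than B cells in the Cr2 level was not tested.

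The same genes were tested in each MRL/lpr group alone, in comparisons that share the Ctr kidneys with each other and the Lpr or DNase kidneys with the contrast that picked the genes. In Lpr against Ctr, Pax5 had too few counts to be tested, and 2 of the other 8 rose, Cd22 with a log2 fold change of 5.47 (adjusted p = 0.00333) and Cd79a with 3.09 (adjusted p = 0.0346). Over all 16074 genes tested, 4.65% were called higher. The call of Cd79a was lost without Ctr 1, Ctr 3, Lpr 2 or Lpr 4, with adjusted p from edgeR of 0.0956, 0.088, 0.0802 and 0.0735. Bank1 had a log2 fold change of 2.13 (adjusted p = 0.0932) and passed without Lpr 3 (adjusted p = 0.0499). The remaining log2 fold changes lay between -1.25 for Cr2 and 1.36 for Cd79b, and that of Fcrla was -0.0025.

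In DNase against Ctr, 4 of 9 rose, where 4.56% of 16100 genes were called higher. Cd22 had a log2 fold change of 5.52 (adjusted p = 7.65e-05), Cd79a of 3.67 (adjusted p = 0.00228), Bank1 of 2.85 (adjusted p = 0.00992) and Ms4a1 of 2.66 (adjusted p = 0.00187). Blk had 2.05 (adjusted p = 0.0878), Cd79b 1.73 (adjusted p = 0.0221), Pax5 1.69 (adjusted p = 0.1), Fcrla 1.21 (adjusted p = 0.185) and Cr2 -0.92 (adjusted p = 0.0874). Without Ctr 1, 7 of the 9 were called by edgeR, beside 6% of 16349 genes in either direction, with Cd79b at 2.13, Fcrla at 2.14 and Pax5 at 2.78 added. The DNase values in this comparison are those that picked the genes, and Pax5 was tested only through them, so these calls are no independent support for a rise. The median of the 9 was 2.05 in DNase against Ctr and 1.32 over the 8 tested in Lpr against Ctr, beside 0.00 and 0.03 over all genes tested.

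**Figure D2:**
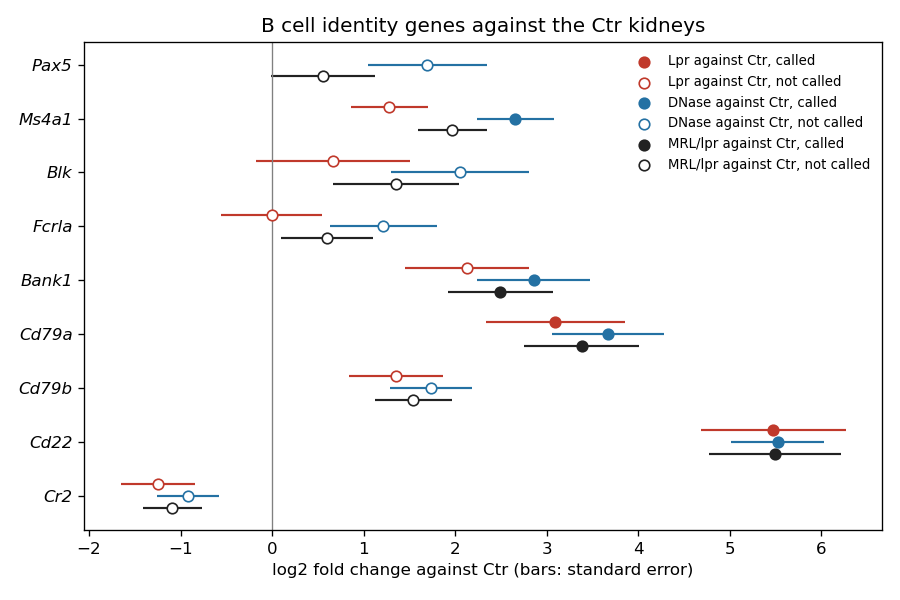
Log2 fold change against the Ctr kidneys (x axis) of each gene (y axis) in Lpr, in DNase and in both MRL/lpr groups, from edgeR. Bars are standard errors, filled points passed both thresholds and open points did not, and Pax5 has no Lpr value because it was not tested there. Cd22 lies between 5.47 and 5.52 in all 3 comparisons, and Cr2 is left of 0 in each.

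The Ctr kidneys differed among themselves. Ctr 2 had the lowest level of 7 of the 9 genes, among them Cd79a at 2 reads and Blk at none. It also had the lowest summed level of the 5 fat marker genes in Ctr, 45.7 CPM against 285 in Ctr 1 and 489 in Ctr 3. The 12 T cell genes summed to 9.42 CPM in Ctr 2 and to 16.0 and 15.0 CPM in Ctr 1 and Ctr 3. The part of fat or of other tissue in these values was not tested.

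Between DNase and Lpr kidneys, all 9 genes had positive log2 fold changes, which is what they were picked for, and 4 of them, Pax5, Ms4a1, Blk and Fcrla, did not overlap between the groups. Over all 15832 genes tested, 1.92% had every DNase kidney above every Lpr kidney and 1.87% every DNase kidney below. The log2 fold change was 2.29 for Pax5, 1.40 for Blk, 1.38 for Ms4a1 and 1.23 for Fcrla. It was 0.74 for Bank1, 0.59 for Cd79a, 0.39 for Cd79b, 0.34 for Cr2 and 0.07 for Cd22. Pax5 passed the filter on low counts only through the DNase kidneys. The median of the 9 was 0.74, beside -0.02 over all genes tested.

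The size of this difference varied among the 9 genes. Mean levels of Pax5 were 0.175 ± 0.0370 CPM in Lpr and 0.866 ± 0.415 CPM in DNase (SD, n = 4 each), and those of Cd22 were 9.51 ± 6.21 and 9.94 ± 3.73 CPM. Among DNase kidneys, DNase 3 had the highest level of 8 genes, with Cr2 as the exception, and DNase 1 had the lowest of 7. DNase 1 lay closest to Lpr for Pax5, at 0.386 CPM against 0.199 CPM in the highest Lpr kidney. Lpr 3, the library with the length slope, was the lowest Lpr kidney for Pax5, Cr2, Cd22, Bank1 and Blk and the highest for Fcrla and Cd79b. Without it the log2 fold change between DNase and Lpr was 2.15 for Pax5, 1.40 for Ms4a1, 1.23 for Blk, 1.34 for Fcrla and -0.25 for Cd22. The part of gene length in the values of Lpr 3 was not tested further.

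No gene was called between DNase and Lpr by edgeR, which gives 0% of 15832 genes. At an unadjusted p under 0.05 there were 886, or 5.6%, and DESeq2 called 5 genes. Of the 14 other B cell markers tested, 11 had a positive log2 fold change, with a median of 0.58, and 4 did not overlap between the groups. Among these 4, Spib, a transcription factor of B cells and plasmacytoid dendritic cells, had a log2 fold change of 1.05, and Fcrl1, an Fc receptor-like protein of B cells, had 1.46. Both had an adjusted p of 0.82 from edgeR. Negative log2 fold changes were those of Cxcr5 with -0.54, Ly6d with -0.42 and Cd72 with -0.04. These markers were known from earlier results on the same libraries and are not independent of the choice of the 9 genes.

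Lists of other cell types had smaller or negative medians. The 9 genes were picked on DNase against Lpr, and the other B cell markers were chosen with earlier results known. Their larger medians beside these lists are therefore no test. Between DNase and Lpr the median log2 fold change was 0.20 for 9 plasma cell genes, -0.18 for 12 T cell genes, -0.37 for 10 macrophage and neutrophil genes and -0.19 for 6 genes shared by all leukocytes. The 20 genes of B cell receptor signalling, most of which other leukocytes also express, had a median of -0.05. The 4 germinal centre B cell genes tested had a median of -0.26. For 2 of these 4, among them Gcsam with -0.74, every DNase kidney was below every Lpr kidney, beside 1.87% of all genes. The 8 kidney markers had 0.28, and the 4 fat markers tested had -1.86. All 5 fat markers summed to 37.6 to 146 CPM in DNase and 30.0 to 553 CPM in Lpr. None of these genes was called. The part of fat in the B cell values was not tested.

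As a ratio to the summed level of the 12 T cell genes, the summed level of the 8 genes without Cd22 was 14.4% to 19.8% in DNase, 7.38% to 15.1% in Lpr and 26.8% to 56.9% in Ctr. Without Cd22, this ratio was lower in each MRL/lpr kidney than in any Ctr kidney. The T cell genes summed to 9.42 to 16.0 CPM in Ctr, 106 to 235 CPM in Lpr and 108 to 171 CPM in DNase, and the 8 genes to 2.52 to 9.12 CPM, 10.1 to 19.8 CPM and 15.5 to 33.8 CPM. The ratio to the 6 leukocyte genes was 6.46% to 8.27% in DNase, 3.13% to 6.52% in Lpr and 4.89% to 12.7% in Ctr, and each pair of groups overlapped. The 8 genes are among those picked for being higher in DNase than in Lpr, so higher ratios in DNase are no test. With Cd22 included, the 9 genes summed to 20.4 to 47.4 CPM in DNase, 19.0 to 33.7 CPM in Lpr and 2.65 to 9.50 CPM in Ctr. In DNase 3 they summed to 47.4 CPM beside 171 CPM of the T cell genes. In Ctr 2 they summed to 2.65 CPM beside 9.42 CPM, so these 2 kidneys lay close. The separation of the strains in the ratio to T cell genes thus depends on leaving out Cd22.

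**Figure D3:**
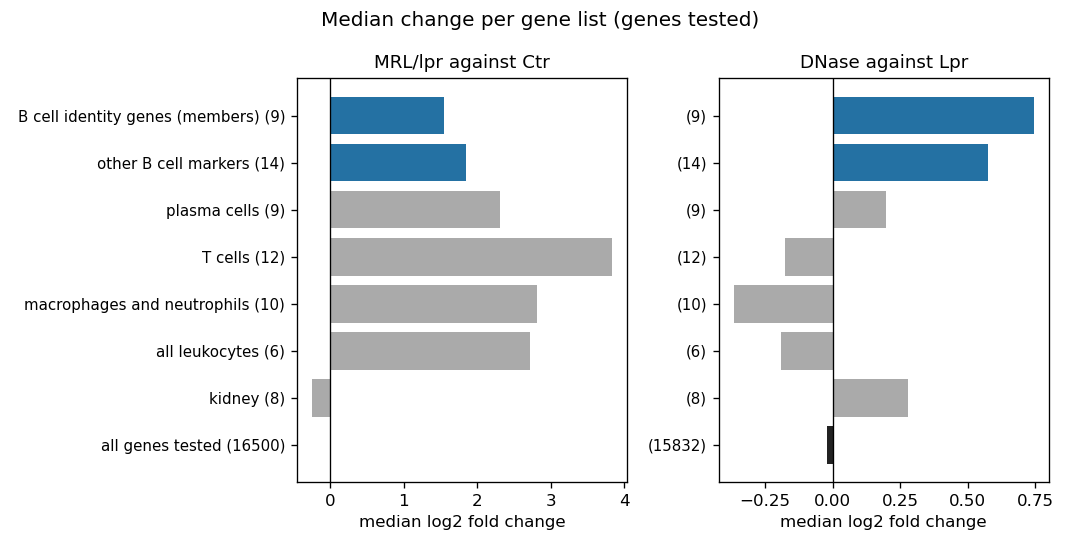
Median log2 fold change (x axis, scales differ between the panels) of each gene list (y axis, genes tested in brackets) between MRL/lpr and Ctr on the left and between DNase and Lpr on the right. The 9 genes have a median of 1.54 on the left, below the T cell genes at 3.83, and of 0.74 on the right, where the T cell genes lie at -0.18. The right panel holds the contrast that picked the 9 genes.

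The wider B cell programme in MRL/lpr kidneys was described with lists chosen with earlier results known. Between MRL/lpr and Ctr, 5 of 14 other B cell markers rose, Cxcr5, Pou2af1, Spib, Cd72 and Fcrl1, and 0 fell, with a median of 1.84. Pou2af1, a coactivator of octamer factors in B and plasma cells, had 0.315 ± 0.149 CPM in Ctr (SD, n = 3) and 13.1 ± 6.58 CPM in MRL/lpr (SD, n = 8), and rose by 5.31 on the log2 scale (standard error 0.67, adjusted p = 0.000175). Cxcr5, the receptor that guides B cells and follicular helper T cells into follicles, had a log2 fold change of 4.82 (adjusted p = 0.00221) and at most 3 reads in any Ctr kidney. The ligand of CXCR5, Cxcl13, had 0.385 ± 0.317 CPM in Ctr (SD, n = 3) and 14.8 ± 7.17 CPM in MRL/lpr (SD, n = 8), a log2 fold change of 5.21 (adjusted p = 0.000241).

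Of the 9 plasma cell genes 5 rose, with a median of 2.31, led by Jchain, the joining chain of polymeric antibodies, with 5.29 (adjusted p = 0.000219), and Mzb1, a chaperone of antibody assembly, with 4.64 (adjusted p = 0.0001). Jchain had 603 ± 282 CPM in MRL/lpr kidneys (SD, n = 8) and 15.3 ± 8.73 CPM in Ctr (SD, n = 3). Of the 20 receptor signalling genes 7 rose, among them Syk, Btk, Pik3ap1, Pik3cd, Vav1 and Prkcb, and 0 fell. Of the 15 transcription factors of the lineage 6 rose, among them Pou2f2 with 3.74 and Ikzf3 with 3.19. Spi1 and Ikzf1, which act in other leukocytes too, had 2.47 and 2.63. For all 6 factors, the part of other leukocytes in the rise was not tested.

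T cell genes rose in 12 of 12 with a median of 3.83, macrophage and neutrophil genes in 9 of 10 with 2.82, and leukocyte genes in 6 of 6 with 2.72. Of the B cell survival and lymphotoxin ligands 3 of 4 rose, including Tnfsf13b, which encodes BAFF, with 2.31 (adjusted p = 0.000255) and Ltb with 3.06 (adjusted p = 0.00015). Of 4 germinal centre genes tested 1 rose, Gcsam with 2.35, and the defining gene Rgs13 was at or near 0 in every group, with means of at most 0.0137 CPM. Of the precursor B cell genes, Vpreb1, the 1 tested and named after its values were seen, had means of 0.997 CPM in Ctr, 1.44 in Lpr and 1.12 in DNase and was not called, while Rag1 had no count in any MRL/lpr kidney and Dntt had means of at most 0.0764 CPM. Genes of surface immunoglobulin were not analysed here.

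The 9 genes did not vary together equally. Over the 8 MRL/lpr kidneys, which share the difference that picked the genes and the length slope of Lpr 3, log2 CPM of Pax5 had a Pearson correlation of 0.97 with Ms4a1, 0.93 with Blk, 0.88 with Bank1 and 0.81 with Fcrla. With Cd79a it was 0.68, with Cd79b 0.62, with Cd22 0.46 and with Cr2 0.37. After subtracting group means the order changed, with 0.93 for Bank1, 0.86 for Ms4a1, 0.82 for Blk, 0.67 for Cd22, 0.58 for Cd79a, 0.46 for Fcrla, 0.42 for Cd79b and 0.02 for Cr2. The values before this step thus hold part of the difference that picked the genes. Cr2 had a median correlation of 0.30 with the other 8 genes, 0.34 with the other B cell markers and 0.56 with the 8 kidney markers. After subtracting group means these medians were -0.006, 0.20 and 0.46. These correlations are a description over 8 kidneys, and the partners were chosen after the values were seen.

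CD79A, unlike PAX5, is kept by some antibody-secreting cells. In these kidneys the median correlation of Cd79a with the 9 plasma cell genes was 0.72, with Irf4, a transcription factor of plasma cells and activated lymphocytes, at 0.91, while that of Pax5 was 0.35. With the other 8 B cell genes the medians were 0.66 for Cd79a and 0.75 for Pax5. The median of Cd79a with the 12 T cell genes was 0.57, and that of Cd79b with the 9 plasma cell genes was 0.38. The part of antibody-secreting cells in the Cd79a level was not tested.

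Cd22 differed from Pax5 in the genes it correlated with. Over the 8 MRL/lpr kidneys its correlation was 0.92 with Csf1r, the receptor for macrophage colony-stimulating factor, which was named after its values were seen, and 0.90 with Itgax, which encodes CD11c of dendritic cells and some macrophages and B cells. Its median correlation was 0.52 with the 10 macrophage and neutrophil genes, 0.49 with the 8 kidney markers, 0.46 with the 12 T cell genes, of which Cd4 had 0.91, and 0.37 with the other 8 B cell genes, so that it was not particular to myeloid genes. The 10 genes most like Cd22, a ranking added after seeing the data, were Txnrd1, Fes, Csf3r, Sirpa, Clptm1l, Cybb, Lcp1, Rab30, Kcnab2 and Was, with correlations between 0.95 and 0.99 over 13776 genes ranked. Cd180, a Toll-like receptor homologue of B cells, had 0.85 with Cd22 and was likewise lowest in Lpr 3, at 1.20 CPM against 7.57 to 9.65 CPM in the other Lpr kidneys.

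The number of Cd22 reads per Ms4a1 read differed between the strains in every kidney. It was 0.333 to 1.27 in Ctr, 4.89 to 6.74 in DNase and 4.00 to 21.9 in Lpr, so that every MRL/lpr kidney was above every Ctr kidney. Within Lpr it was 21.9, 20.8, 4.00 and 10.1 in Lpr 1 to Lpr 4, and Lpr 3 again was the lowest. Per Cd79a read the strains overlapped, with 0.359, 2 and 0.114 in Ctr, 0.872 to 1.21 in DNase and 0.529 to 4.47 in Lpr. The Ctr ratios rest on few reads. Cd22 lay at 0.128 and 0.120 CPM in Ctr 2 and Ctr 3, where the floor was 0.0958 and 0.0899 CPM. The part of cells other than B cells in the Cd22 level was not tested.

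**Figure D4:**
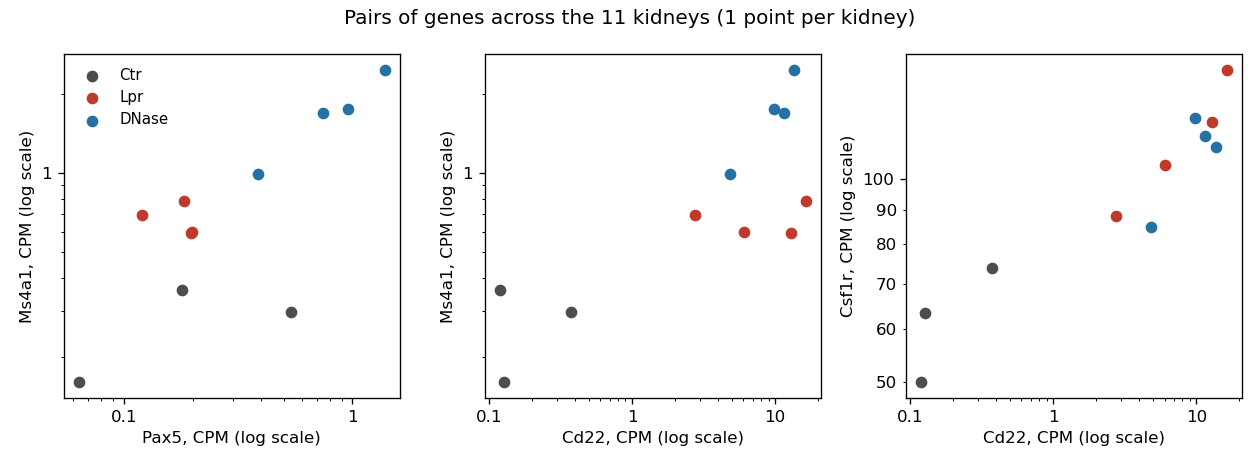
Levels of 2 genes against each other in CPM, both axes on log scales, with 1 point per kidney and colours for Ctr, Lpr and DNase. Ms4a1 against Pax5 places DNase kidneys up to the right of Lpr, Ms4a1 against Cd22 shows Lpr and DNase over the same Cd22 range, and Csf1r against Cd22 shows both MRL/lpr groups along 1 band.

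The genes most like the mean of the 9 over the 8 MRL/lpr kidneys were Edem2, Fcrl1, Nqo1, Slc38a3, Cd37, Frg2f1, Abcf3, Atp6v1g2, Foxp3 and Esr1, with Pearson correlations between 0.92 and 0.98 among 13776 genes ranked. Fcrl1 and Cd37 are markers of B cells, and Foxp3 marks regulatory T cells. Among the 10 most like Pax5 were Frg2f1, Cnpy1, Spib, Fcrl1, Cyp4a12a, Atp6v1g2, Abcf3, Kcnip2 and Klhl9, between 0.94 and 0.98. Spib and Fcrl1 are B cell genes, while Cyp4a12a is an enzyme of the proximal tubule. DNase and Lpr kidneys were ranked together, so the difference that picked the 9 genes enters both rankings. After subtracting group means, the correlations with the mean of the 9 lay between 0.81 for Abcf3 and 0.94 for Edem2. Those with Pax5 lay between 0.68 for Kcnip2 and 0.93 for Fcrl1. With 8 kidneys and this many genes, correlations of this size are a ranking only, and B cell genes among them are no independent support.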

How the data were processed

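The authors deposited raw counts of reads per gene, for which they name HTSeq with 100 bp paired-end reads (build mm10 in the submitters' processing notes), and FPKM values made from the same counts. Counts were tested with edgeR 4.0.16 in R 4.3.3 (quasi-likelihood, TMM, filterByExpr, Benjamini-Hochberg over all genes tested), with 1 fit per pair of groups and 1 fit of all 11 libraries for the mean of Lpr and DNase against Ctr. Genes were called at an adjusted p under 0.05 with a log2 fold change above 2 in size. CPM used TMM-scaled library sizes, and log2 CPM a prior count of 2. FPKM served only to compare genes and as an alternative with limma 3.58.1. DESeq2 1.42.0, other normalization, filter, threshold, samples and block, and leaving out each library, were alternatives. The fits were tested on simulated data. The members and gene lists were chosen with earlier results of these data known. Named were the members, listed genes that were called or among the 3 highest of their list by FPKM, and the 10 genes most like the members or Pax5 (at least 0.5 CPM, no predicted genes or receptor segments). Others are marked as chosen after their values were seen, except germinal centre and precursor genes named for being near 0. Replicate numbers mark separate mice: same-numbered kidneys of different groups had correlations of deviations of -0.278 to 0.157. No column was left unused. Results of some genes are not reported here. Intervals and floors cover counting error only.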

Additional observations from a re-analysis of the deposited data

Results flagged for a closer look

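In 5 of 54 sets of 4 kidneys (27 named genes in Lpr and in DNase), 1 kidney lay further from the others than Dixon's 95% critical value for gap over range allows. Chance flags about 1 in 20 such sets. Btk, the kinase downstream of the B cell receptor, was low in DNase 1, at 2.34 CPM against 4.35 to 4.64 in the other DNase kidneys. Of the plasma cell genes, Mzb1 was low in DNase 1, at 10.1 CPM against 25.1 to 27.2, and Jchain was low in Lpr 1, at 142.6 CPM against 617 to 693. Ltb, a lymphotoxin chain, was high in Lpr 3, at 27.3 CPM against 10.4 to 13.1, and Cd3e of T cells was high in Lpr 2, at 13.3 CPM against 4.47 to 5.92. Each of the 9 B cell identity genes stayed below the critical value in both groups.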

How the results depend on the processing

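In Lpr against Ctr the 2 genes called became 1 with the replicate number as a block (Cd79a, adjusted p = 0.0761) and 1 with limma on log2(FPKM + 1), and 1 to 3 with a library left out. The share of all genes called in either direction moved too. It was 5.78% in the main fit, 5.55% with the block, 1.32% with log2(FPKM + 1) and 4.05% to 6.11% with a library left out. The median of 1.32 became 0.21 with log2(FPKM + 1), which compresses low genes, and lay between 0.97 and 1.55 without single libraries. Fcrla, at -0.0025, was 0.25 with the block, 0.0226 with log2(FPKM + 1), 0.18 with log2(FPKM + 0.1) and -0.36 to 0.92 without single libraries.

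In DNase against Ctr the 4 called became 1 with log2(FPKM + 1), 2 with log2(FPKM + 0.1), 3 with the block, where Bank1 had an adjusted p of 0.074, and 4 to 7 without single libraries, 7 without Ctr 1. Of all genes, 6.01% were called in the main fit, 1.18% with log2(FPKM + 1) and 3.98% with log2(FPKM + 0.1). With the block it was 5.27%, and without single libraries 5.46% to 6.33%. The median of 2.05 became 0.50 with log2(FPKM + 1). In MRL/lpr against Ctr the 3 called became 6 without a fold threshold and 1 with log2(FPKM + 1), with a median of 0.34 there, against 1.54. They were 3 with the block, which is no pairing here, since the numbers mark separate mice. Without single libraries they were 3 to 4. Of all genes, 6.18% were called in the main fit, 15.9% without a fold threshold and 1.2% with log2(FPKM + 1). With the block it was 5.95%, and without single libraries 5.66% to 6.39%. In DNase against Lpr, log2(FPKM + 1) moved Pax5 from 2.29 to 0.12 and log2(FPKM + 0.1) to 0.75.

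DESeq2 added Bank1 in Lpr against Ctr (adjusted p = 0.0201) and Blk in DNase against Ctr (adjusted p = 0.0246). It called 6.46% and 6.08% of all genes in these 2 comparisons. The low counts of Pax5, Blk, Bank1, Ms4a1 and Cd22 in Ctr limit their fold changes, and 1 of 3 Ctr kidneys can set a call. With limma on log2(FPKM + 1), Cd22 fell below the fold threshold. It had 1.44 in Lpr, 1.59 in DNase and 1.52 in MRL/lpr against Ctr. Only 1 strain serves as control. Of the other values for these results under the alternatives, 99 summaries and 518 single-gene values kept their direction and side of the thresholds, or stayed within the spread between kidneys.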
